A study of Sus scrofa with 8 samples.

Results

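The array targets examined here are the miRNAs numbered 17, 18, 19, 20 and 92, the names carried by the miR-17-92 cluster and its copies. They were found by name alone: every non-control target whose miRNA number, after the species prefix was dropped, was exactly one of these numbers, whatever its letter or arm. This gave 15 of the 686 targets on the array, of which 11 bore porcine names, 3 human names and 1 a mouse name. The tissue was the corpus luteum, the progesterone-secreting gland that the ovulated follicle becomes. The samples were luteal tissue of crossbred gilts of 6 to 8 months from a single commercial herd, taken on day 14 of the estrous cycle without insemination (cyclic, 4 arrays) or on day 14 of pregnancy after insemination 12 and 24 h after the second estrus was detected (pregnant, 4 arrays). Each array carried total RNA of 1 sample, which the labels present as individual biological replicates, on a 1-colour Agilent miRNA array.

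The miR-17-92 cluster is transcribed as a single primary RNA from which several miRNA hairpins are cut, and mammals hold related clusters that arose by duplication. Its miRNAs fall into groups that share a seed, the short 5′ stretch by which an miRNA finds its targets: miR-17 and miR-20 in one group, miR-18, miR-19, and miR-92 in groups of their own. In mouse and human cells the cluster promotes proliferation and survival, and in the mouse miR-17-5p has been tied to vessel growth in the young corpus luteum through the inhibitor TIMP1. In the RefSeq annotation of the pig (Sscrofa11.1) MIR17, MIR18A, MIR19A, MIR20A, MIR19B-1 and MIR92A-1 are adjacent genes on chromosome 11, in that order. A second run of adjacent genes on chromosome X holds MIR363-1, MIR92A-2, MIR19B-2, MIR20B-1, MIR18B and MIR106A, and MIR92B lies on chromosome 4. Mature miR-19b and miR-92a can therefore come from either cluster, and an array signal does not tell these sources apart.

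Values are log2 of the background-subtracted spot intensity of a target's probe divided by a percentile of that array. This is the 75th percentile over the 166 targets detected on all arrays, so a value of 0 is the level of that percentile. Each probe binds its target with its own strength, so levels are compared between arrays and never between targets. Of the 15 members, 9 were detected on at least 4 arrays and tested: the porcine miR-17-5p, miR-17-3p, miR-18a, miR-19a, miR-19b, miR-20a, miR-20b and miR-92a, and mmu-miR-20b-5p. Among these, 8 were detected on all 8 arrays, and ssc-miR-92a was the exception. The remaining 6 members, ssc-miR-18b, ssc-miR-92b-3p, ssc-miR-92b-5p, hsa-miR-18a-3p, hsa-miR-19a-5p and hsa-miR-19b-1-5p, were detected on no array. The percentile used for scaling ran from 189 to 316 intensity units, 0 spots were saturated, and 22.8% to 28.8% of spots were well above background. Slide 1, scanned on a day of its own, held pregnant replicates 1 and 2, while slide 2 held cyclic replicates 1 and 2. Slide 3 held the other 2 replicates of each group, numbers 3 and 4. No other tissue was on the arrays, so detection of luteal miRNAs is no test of the tissue. The gonad-enriched ssc-miR-202-3p was detected on all 8 arrays and ssc-miR-202-5p on 5. Of a list of 9 targets known from luteal and steroidogenic tissue, 6 were tested, and 0 of these passed, beside 11.3% of all 212 tested targets. The summed scaled signal of the 6 was 2.14, 1.46, 1.52 and 1.52 on cyclic replicates 1 to 4 and 2.01, 2.24, 1.98 and 2.17 on pregnant ones. In this sum cyclic replicates 2, 3 and 4 lay below all pregnant arrays. These include cyclic replicates 2 and 4, where most members were highest, and the part of luteal cell content in the members' values was not tested.

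The comparison of pregnant with cyclic luteal tissue showed 0 of the 9 tested members higher and 0 lower after adjustment, beside 11.3% of all 212 tested targets (5.19% higher and 6.13% lower in pregnancy). A difference is the pregnant mean minus the cyclic mean, in log2 units, from a limma fit over all 212 targets with Benjamini-Hochberg adjustment and a threshold of 0.05. Negative differences were found in 8 of 9 members against 105 of the 212 targets (49.5%), but only in 4 of 9 members when arrays were scaled on the 75th percentile of all probes, a setting that moved the median of all targets to 0.30 and left the members' median below that of all targets by the same amount (−0.28 in both). The members' median difference was −0.27, where that of all tested targets was 0.00376. An unadjusted p under 0.05 was reached by 1 of 9 members, beside 34.4% of all tested targets. In 1 of 9 members, ssc-miR-92a, the 4 pregnant arrays lay apart from the 4 cyclic ones, beside 17.0% of all tested targets. Members share the same 8 arrays and the same scaling, so they are not independent of each other. In whole tissue, fewer cells that express an miRNA and less of it per cell cannot be told apart.

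**Figure D1:**
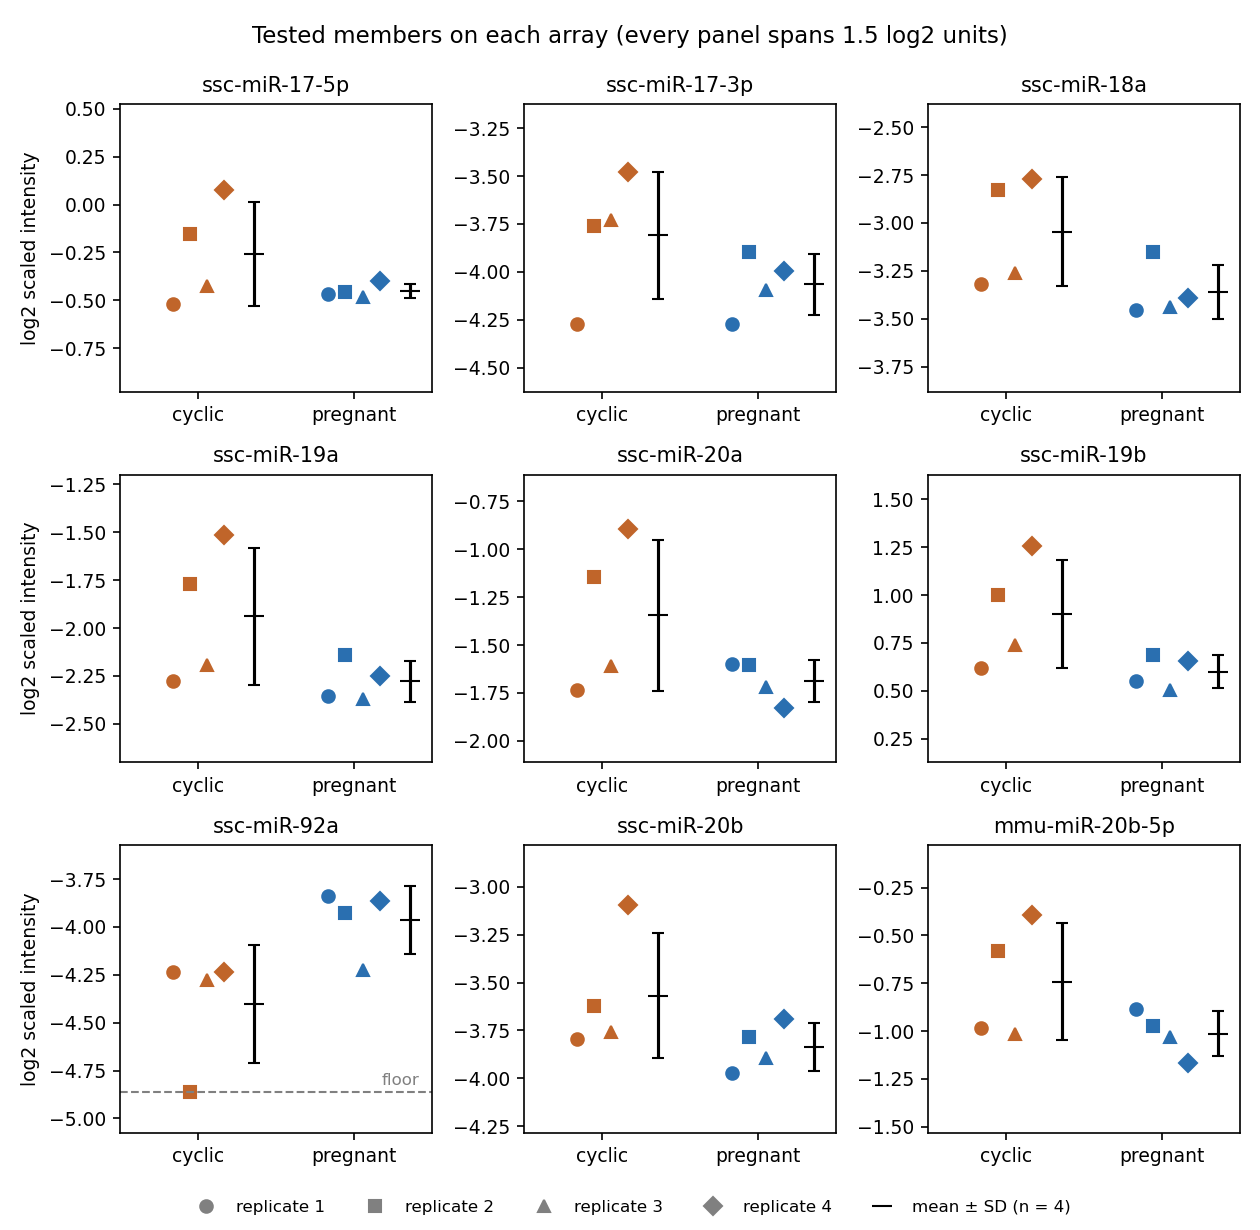
Level of each of the 9 tested members on each array, as log2 scaled intensity, with cyclic arrays on the left and pregnant arrays on the right of each panel; marker shapes are replicates 1 to 4, bars are mean ± SD (n = 4), and every panel spans 1.5 log2 units around its own centre. Cyclic replicates 2 and 4 lie above all 4 pregnant arrays in every panel but that of ssc-miR-92a, whose pregnant arrays lie above the cyclic ones.

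In the seed group of miR-17 and miR-20, which is known in human cells to repress the cell cycle inhibitor CDKN1A and the transcription factor E2F1, ssc-miR-17-5p stood at −0.52, −0.15, −0.43 and 0.07 on cyclic replicates 1 to 4. On the pregnant arrays the same miRNA stood at −0.47, −0.46, −0.48 and −0.40. The pregnant arrays were nearly level with each other (SD 0.0370) and with cyclic replicates 1 and 3, while cyclic replicates 2 and 4 were higher. The difference of −0.19 ± 0.14 (SE, n = 4 per group) corresponded to 0.874 of the cyclic level and did not pass (adjusted p = 0.383).

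The other strand of the same hairpin, ssc-miR-17-3p, stood at −4.27, −3.76, −3.73 and −3.48 on cyclic replicates 1 to 4 against −4.27, −3.90, −4.09 and −3.99 on pregnant ones. Here cyclic replicate 1 and pregnant replicate 1 shared the lowest level, and 3 of the cyclic arrays lay above all 4 pregnant ones. Its difference was −0.25 ± 0.19 (adjusted p = 0.386), and its probes had a median spread between spots of 12.5% for the probe used and 14.8% for the other, which was detected on 5 arrays. The log2 ratio of the 3p to the 5p probe within an array, whose own size carries the strength of both probes and says nothing of the strands' abundance, had an SD of 0.188 in cyclic and 0.150 in pregnant samples (n = 4 each). Its difference between the groups, −0.06, was smaller than either SD (2-sided exact permutation test over the 8 arrays, p = 0.657, smallest possible 0.0286), and its sign changed when cyclic replicate 3 (0.0243) or pregnant replicate 1 (0.00448) was left out.

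For ssc-miR-20a, encoded in the chromosome 11 cluster, the cyclic values were −1.73, −1.14, −1.61 and −0.89 and the pregnant values −1.60, −1.61, −1.72 and −1.83. The groups overlapped, since cyclic replicates 1 and 3 fell inside the pregnant range. Its difference of −0.34 ± 0.19 was the lowest among the members and corresponded to 0.788 of the cyclic level (adjusted p = 0.234). The 95% interval, from −0.76 to 0.07, included 0.

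The array held miR-20b, the chromosome X counterpart, under a porcine and a mouse name with probes of their own. The porcine entry ssc-miR-20b stood at −3.80, −3.62, −3.76 and −3.09 on cyclic and −3.97, −3.78, −3.90 and −3.69 on pregnant replicates 1 to 4, a difference of −0.27 ± 0.19 (adjusted p = 0.349). The mouse entry mmu-miR-20b-5p stood at −0.98, −0.58, −1.02 and −0.39 on cyclic and −0.89, −0.97, −1.03 and −1.17 on pregnant arrays, also a difference of −0.27 ± 0.16 (adjusted p = 0.270). The entries differed in which pregnant array was highest: replicate 4 for the porcine entry, where replicate 4 was the lowest for the mouse entry. Over the 8 arrays the mouse entry followed ssc-miR-20a (r = 0.984) more closely than ssc-miR-20b (r = 0.765).

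ssc-miR-18a has a seed of its own and is known in mouse tumour cells to repress the matricellular factor CTGF. Its cyclic values were −3.32, −2.83, −3.26 and −2.77 and its pregnant values −3.46, −3.15, −3.44 and −3.39. Cyclic replicates 2 and 4 lay above all pregnant arrays and cyclic replicates 1 and 3 among them, giving a difference of −0.31 ± 0.18 (adjusted p = 0.250). Only 1 of its probes was detected. Its paralog ssc-miR-18b, encoded on chromosome X, and the opposite strand hsa-miR-18a-3p were not well above background on any array.

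The miR-19 miRNAs are known in mouse lymphoma for carrying much of the cluster's growth-promoting activity. ssc-miR-19a stood at −2.28, −1.77, −2.19 and −1.52 on cyclic and at −2.35, −2.14, −2.37 and −2.25 on pregnant replicates 1 to 4, a difference of −0.34 ± 0.18 (adjusted p = 0.228). ssc-miR-19b, whose hairpin genes lie in both clusters, stood at 0.62, 1.00, 0.74 and 1.25 on cyclic and 0.55, 0.69, 0.50 and 0.66 on pregnant arrays. For miR-19b, 3 cyclic arrays exceeded all 4 pregnant ones, and cyclic replicate 1 fell inside the pregnant range. Its difference of −0.30 ± 0.15 corresponded to 0.810 of the cyclic level, with a 95% interval from −0.62 to 0.02, and carried the lowest adjusted p among the members with negative differences (0.168). Before scaling, the intensity of its probe ran from 323 to 753 on cyclic and from 298 to 426 on pregnant arrays. The 5p strands hsa-miR-19a-5p and hsa-miR-19b-1-5p were not well above background anywhere. Without cyclic replicate 1, miR-19b (−0.40, adjusted p = 0.0312) and miR-20a (−0.47, adjusted p = 0.0484) passed, in a fit in which 81 of the 212 targets did, against 24 with all arrays.

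ssc-miR-92a, whose seed is shared with miR-25, miR-32, miR-363 and miR-367 and which restrains vessel growth in mouse endothelium, was the member with a positive difference. It was close to the detection limit. Its cyclic values were −4.23, −4.86, −4.28 and −4.24, of which replicate 2 was at the floor set for dim signals and only replicates 1 and 4 were detected. The pregnant values were −3.84, −3.93, −4.23 and −3.87, all detected, so the pregnant arrays carried it past the filter for testing. All pregnant arrays were higher than all cyclic ones, but pregnant replicate 3 exceeded the highest cyclic array by only 0.00909 log2 units (scaled signal 0.0535 against 0.0531). The difference of 0.44 ± 0.18 (1.35-fold) did not pass (adjusted p = 0.135), and over 23 other settings it ran from 0.10 to 0.73 with adjusted p from 0.0128 to 0.979. It passed in 1 of these, the scaling over all probes. The main values come from 1 of its 2 probes, and the other was detected on 1 array and differed by 0.00422. With the mean of both probes the difference was 0.22. The related miR-92b strands were not well above background on any array.

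**Figure D2:**
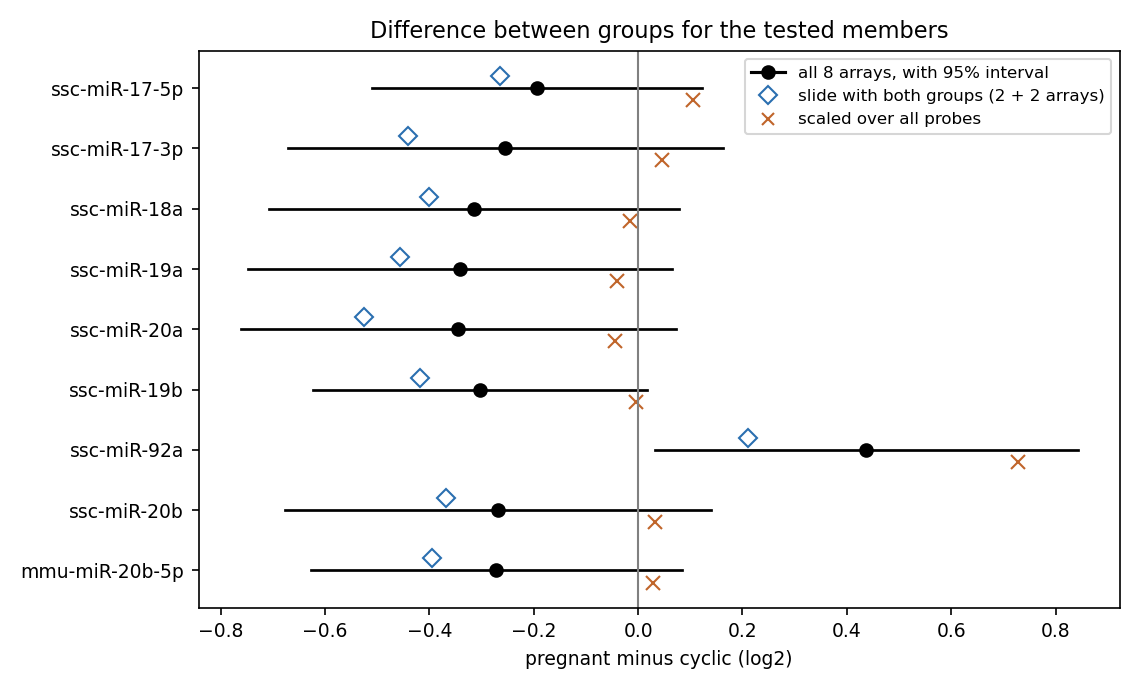
Pregnant minus cyclic difference of each tested member on the log2 scale: filled circles with 95% intervals are from all 8 arrays, open diamonds from slide 3 alone (2 + 2 arrays), and crosses from arrays scaled on the 75th percentile of all probes. With all arrays 8 of 9 differences are negative, and with the scaling over all probes 4 of 9 are.

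Slide 3, which held 2 arrays of each group, gave differences with the same signs as all arrays. They ran from −0.52 for miR-20a and −0.46 for miR-19a to −0.26 for miR-17-5p among the 8 members that were negative, and 0.21 for miR-92a. Adjusted p within this slide ran from 0.242 to 0.539, so 0 members passed there, beside only 9 of all 212 tested targets. Its arrays are among the 8 and include cyclic replicate 4, the highest array in all 8 members other than miR-92a. Cyclic replicate 3, the other cyclic array on it, fell inside the range of all pregnant arrays in 6 of these 8. The shared signs are therefore no independent support. With scan day as a block, the difference was −0.43 for miR-20a, −0.32 for miR-19b and 0.36 for miR-92a.

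The arrays of a group did not lie equally close together. The SD of the cyclic arrays exceeded that of the pregnant arrays in 9 of 9 tested members, as it did in 155 of all 212 tested targets (73.1%). The median ratio of cyclic to pregnant SD was 2.63 over the members and 1.64 over all tested targets. The median SD of the members was 0.306 among cyclic and 0.118 among pregnant arrays.

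**Figure D3:**
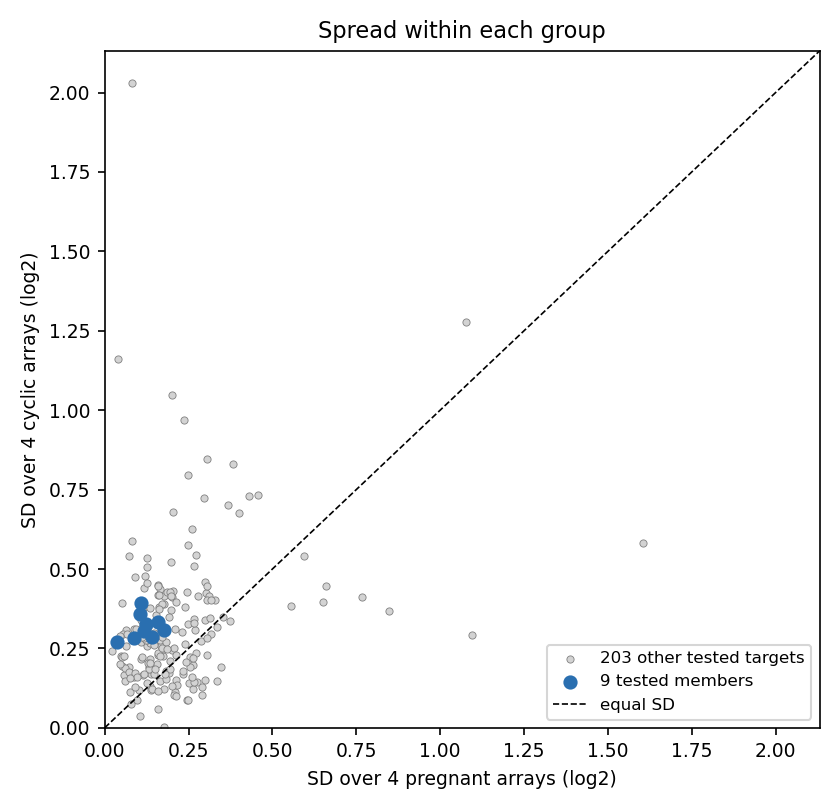
SD over the 4 cyclic arrays against SD over the 4 pregnant arrays (both log2) for the 9 tested members (large points) and the other tested targets (small points); the dashed line marks equal SDs. All 9 members lie above the line, as do 155 of the 212 tested targets in all.

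The order of the arrays was alike in the 8 members other than miR-92a. Cyclic replicate 4 was the highest of the 8 arrays in 8 of these 8 members, a place it held in 38 of all 212 tested targets (17.9%). Cyclic replicate 2 was second in 7 of them and cyclic replicate 3 in ssc-miR-17-3p. Cyclic replicates 2 and 4 exceeded all 4 pregnant arrays in 8 of 8, whereas cyclic replicates 1 and 3 fell inside the pregnant range in 6 of 8 each. For these counts, and for the second place, the share over all tested targets was not counted. Whether they are particular to the members was therefore not tested. Which array stood out from the other cyclic ones varied: replicate 4 alone for ssc-miR-20b, replicates 2 and 4 for ssc-miR-18a, and the low replicate 1 for ssc-miR-17-3p. Cyclic replicates 2 and 4 lay on different slides, slide 2 and slide 3. They also had high scaling percentiles, 297 and 316 intensity units, against 229 and 193 for cyclic replicates 1 and 3, and 301 for pregnant replicate 3. The part of the array percentile in this order was not tested.

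**Figure D4:**
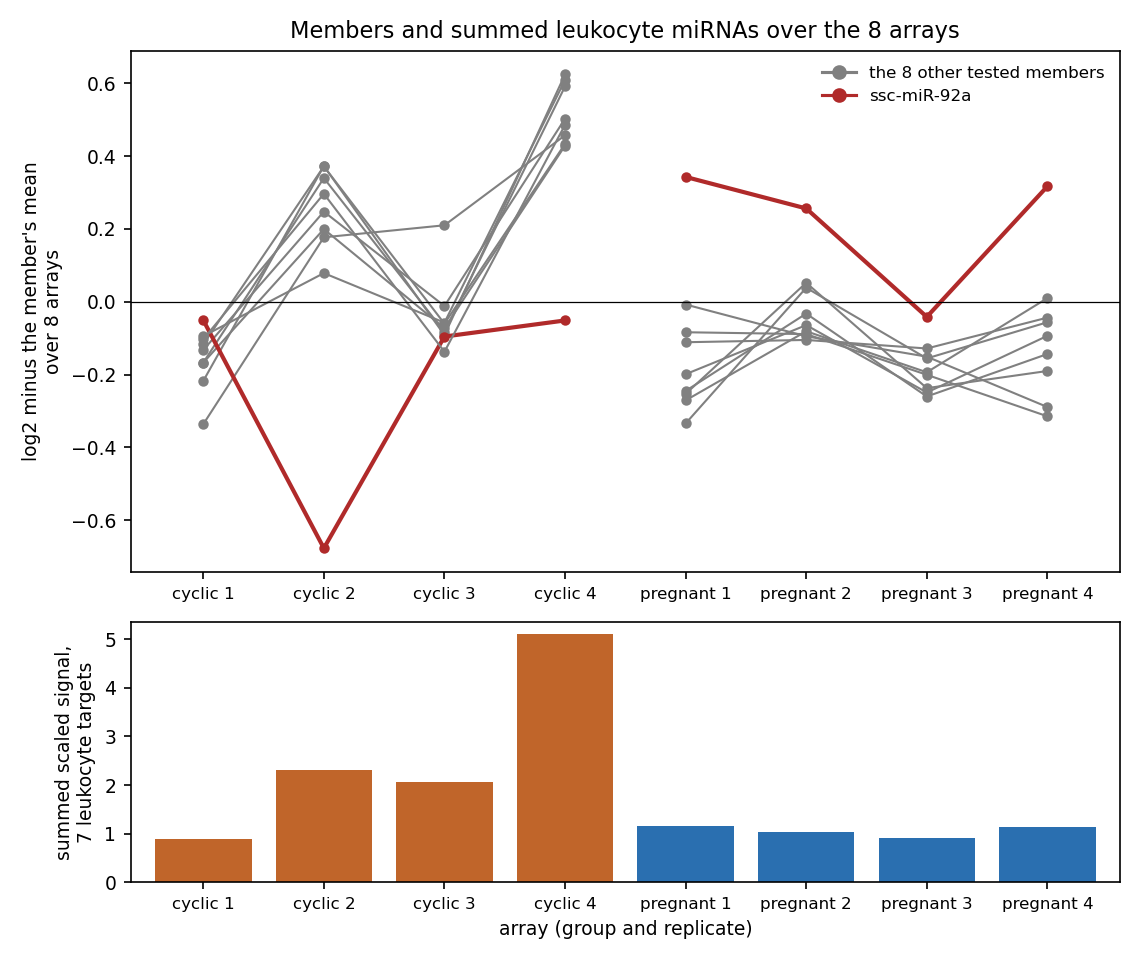
Upper panel: log2 level of each tested member minus its own mean over the 8 arrays, in grey for 8 members and in red for ssc-miR-92a, with lines joining the arrays of a group only to keep each member traceable. Lower panel: summed scaled signal of the 7 tested leukocyte targets on the same arrays, from 0.888 on cyclic replicate 1 to 5.11 on cyclic replicate 4.

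Over the 8 arrays the 8 members other than miR-92a had alike profiles. Their 28 pairs had a median Pearson r of 0.906 (0.635 to 0.991) and a median Spearman rho of 0.798, where all pairs of tested targets had a median r of 0.0337. After the group means were removed, the median r was 0.866. The closest pair was miR-19a with miR-19b (r = 0.991), and the least alike were ssc-miR-17-3p and mmu-miR-20b-5p. These correlations are descriptions over 8 arrays that share a scaling. Probe sequences were not given, so whether a probe also binds a related miRNA was not tested. The members' correlations were lower without cyclic replicates 4 and 2, the 2 arrays farthest from the median of the tested porcine members' own mean. Leaving out arrays chosen in this way by itself tends to lower r. Without replicate 4 the median r was 0.783. Over the 6 arrays without both it was 0.441 (−0.771 to 0.938), with a median rho of 0.6. All pairs of tested targets had a median r of 0.0726 over the same 6 arrays. ssc-miR-92a had r from −0.626 to −0.285 against the other members, and from −0.329 to 0.156 once group means were removed. It was not well above background on cyclic replicates 2 and 3, and at the floor on replicate 2, so these values have no firm size.

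**Figure D5:**
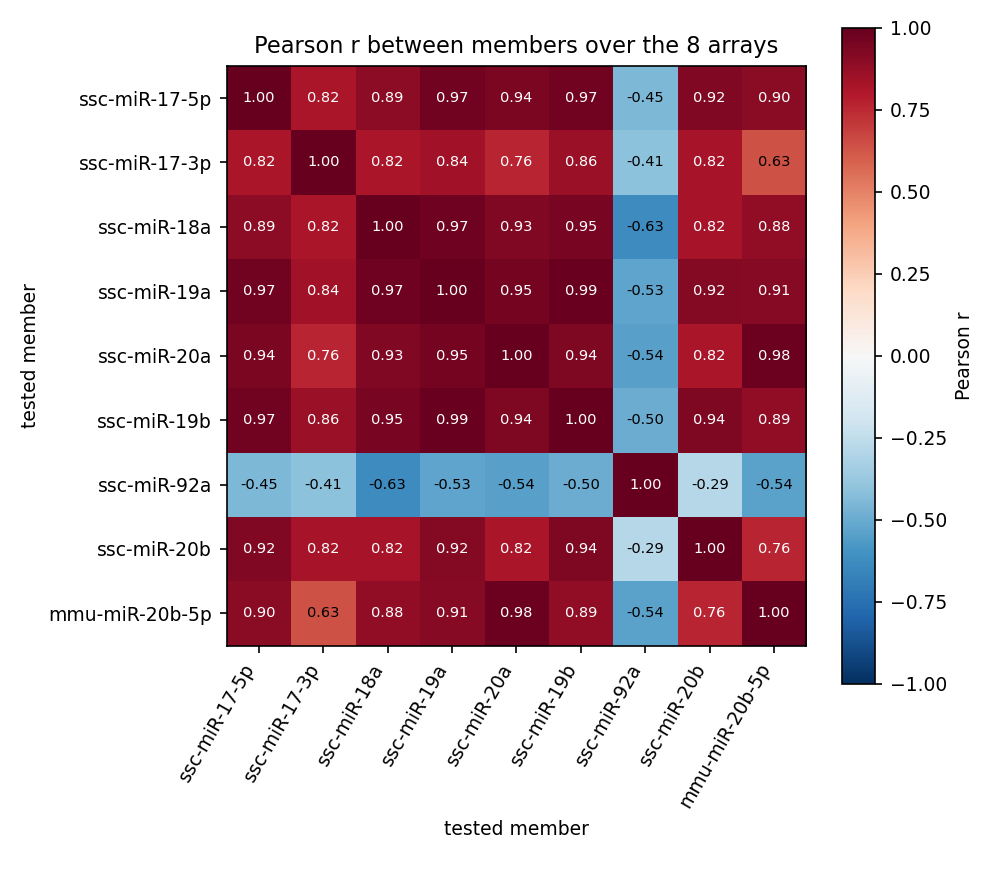
Pearson r over the 8 arrays between each pair of tested members, written in each cell and shaded from blue (−1) to red (1). The 28 pairs without ssc-miR-92a range from 0.635 to 0.991, and the row of ssc-miR-92a from −0.626 to −0.285.

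Ratios between porcine members within an array do not depend on the scaling between arrays unless a value is at the floor, which here holds for miR-92a on cyclic replicate 2. Of 28 such ratios, the 21 without miR-92a differed between the groups by at most 0.150 log2 units, and 0 had groups that lay apart (smallest exact permutation p = 0.0571, before adjustment). The other 7 set a member against miR-92a and had differences between −0.78, for miR-20a, and −0.63, for miR-17-5p. In 4 of these 7 the groups lay apart, at the smallest p possible in the exact permutation test (0.0286, before adjustment). Adjusted over the 28 ratios the smallest exact permutation p was 0.2, so no ratio passed. With that smallest possible p, a few ratios alone could not have passed. All 7 contain the same miR-92a values, which were not well above background on 2 of the 4 cyclic arrays and passed the filter through the pregnant ones. These differences therefore have no firm size, and the 4 ratios that lay apart are no separate result.

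Outside the list, the 5 tested targets whose levels followed the mean of the porcine members most closely over the 8 arrays were ssc-miR-106a (r = 0.959), ssc-miR-142-5p (r = 0.957), hsa-miR-203a-3p (r = 0.900), mmu-miR-342-3p (r = 0.887) and ssc-miR-181c (r = 0.879). miR-106a shares the miR-17 seed and is encoded on chromosome X beside MIR18B. It stood at −4.05, −3.79, −3.95 and −3.29 on cyclic and −4.01, −3.81, −3.98 and −3.82 on pregnant arrays, with cyclic replicate 4 highest. miR-142-5p, an miRNA of blood-forming cells, stood at −3.73, −2.17, −2.78 and −0.96 on cyclic and between −3.11 and −3.02 on pregnant arrays. Its highest arrays were cyclic replicates 4 and 2. All 5 targets were picked for their likeness to the members, so a shared order of arrays is no separate result. hsa-miR-203a-3p and ssc-miR-181c were at the floor on several arrays.

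The sum of the leukocyte list was also highest on cyclic replicates 4 and 2, but not each of its targets was. Both arrays were on top for ssc-miR-142-5p, ssc-miR-155-5p and bta-miR-155. They were not on top together for hsa-miR-223-3p, mmu-miR-342-3p, ssc-miR-146a-5p and ssc-miR-150, the last of which was highest on pregnant replicate 4 (scaled signal 0.0602). Of its 13 targets on the array 7 were tested, of which 1 passed, beside 11.3% of all tested targets: ssc-miR-155-5p, an miRNA induced in activated lymphocytes and macrophages, was lower in pregnancy (−0.96 ± 0.25, adjusted p = 0.0323). The summed scaled signal of the 7 was 0.888, 2.31, 2.07 and 5.11 on cyclic replicates 1 to 4 and 1.16, 1.03, 0.904 and 1.14 on pregnant ones. Cyclic replicate 3 was also above all pregnant arrays in this sum. The myeloid hsa-miR-223-3p, named after its values were seen, contributed much of it, with 0.112, 0.796, 0.987 and 3.35 on cyclic and 0.140 to 0.159 on pregnant arrays (−2.29 ± 0.76, adjusted p = 0.0767). Without it the sum of the other 6 was 0.776, 1.52, 1.08 and 1.76 on cyclic and 0.748 to 0.998 on pregnant arrays. Differences of ssc-miR-146a-5p (−0.01), ssc-miR-150 (0.01) and mmu-miR-342-3p (−0.10) were near 0. The other 6 leukocyte targets, ssc-miR-142-3p, ssc-miR-342, ssc-miR-155-3p, ssc-miR-146a-3p, mmu-miR-223-5p and mmu-miR-342-5p, were detected on no array. The part of these cells in the members' values was not tested.

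Sums for other cell types did not have cyclic replicates 2 and 4 on top together. The fibroblast sum (5 of 6 targets tested) was 3.57, 4.62, 8.49 and 6.09 on cyclic replicates 1 to 4 and 3.85 to 4.31 on pregnant arrays. The erythroid sum (2 of 4 tested) was 7.22, 4.82, 1.36 and 1.31 on cyclic and 1.29 to 6.19 on pregnant arrays. For endothelium (2 of 2 tested) the ranges were 6.29 to 7.49 and 7.10 to 8.73, for smooth muscle and pericytes (4 of 4) 1.25 to 1.87 and 1.28 to 1.70, and for epithelium (2 of 10) 0.136 to 0.175 and 0.130 to 0.162. Neither these lists nor the luteal one had a target that passed, beside 11.3% of all tested targets.

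Relatives of the cluster at other loci or with shared seeds, listed as miR-106a, miR-106b, miR-93, miR-25, miR-363, miR-32 and miR-367, gave 12 targets, of which 5 were tested. Of these, 0 were higher and 0 lower, beside 11.3% of all tested targets in either direction, and their median difference was −0.05. ssc-miR-106a differed by −0.13 ± 0.19, hsa-miR-106b-5p by −0.07 ± 0.14 and hsa-miR-93-5p by 0.11 ± 0.13, all with the miR-17 seed. hsa-miR-25-3p (−0.05 ± 0.13) and hsa-miR-32-5p (0.01 ± 0.16) have the seed of miR-92a. Adjusted p ran from 0.638 to 0.967 over the 5. miR-106b, miR-93 and miR-25, which come from a host gene of their own in mammals, followed the members' mean with r of 0.873, 0.128 and 0.632 over the 8 arrays.

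Where more than 1 probe of a member was detected, the probes gave the same sign. The probes of ssc-miR-17-5p differed between the groups by −0.19 to −0.18 and those of ssc-miR-19b by −0.36 to −0.30, and for ssc-miR-20b the range was −0.27 to −0.21.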

How the data were processed

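The authors deposited scanner files of 8 arrays holding 1 linear, background-subtracted intensity value for each spot, made by Agilent Feature Extraction (version 10.7.3.1 per the file headers, 10.7 per the submitters' processing notes), and a table of log2 values; for cyclic replicates 2 and 4 its deposited columns were read as a score, since 3 cells exceeded 100 and were taken as missing. Compared with scanner values at 2224 bright spots, the table ran in the same direction (slopes 0.936 to 1.00) and was centred per spot. Its scaling between arrays stays unknown. Its column medians were 0.0108, −0.000283, 0.000689 and −0.000205 for cyclic and −0.000302, 9.45e-05, −9.45e-05 and 0.0318 for pregnant replicates 1 to 4.

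Per the labels, Cy3 labelling used 100 ng of RNA, and the RNA integrity number was over 8. Control spots (715 per array) and outlier spots (384 to 453) were left out. Spots of a probe were averaged, divided by the array's 75th percentile over the 166 targets detected on all arrays, floored at 0.0344 (log2 −4.86, the 1st percentile of detected probes) and put on the log2 scale. Detection of a probe required a fraction of 0.5 or more of its spots to be well above background. Each target was represented by its brightest probe on average. The 212 targets detected on at least 4 arrays entered a 2-sided limma test (version 3.58.1, lmFit, then eBayes with a trend), run under R 4.3.3. On simulated data 87.5% of 40 targets changed by 1 log2 unit were recovered among 212. The members' differences were all smaller than that, at most 0.44 in size, so this share does not tell how often changes of their size would be recovered. Figures used Python and matplotlib. Precision is limited by the number of arrays. The labels state no test.

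Members and lists were chosen with earlier results of these data known, so their direction here is no independent support. Named targets were all members, all targets of the related list, the sum of each marker list with any target that passed, and the 5 most alike non-members; other leukocyte targets were named after their values were seen. Alternatives covered background correction, signal summary, scaling, the authors' table, filters, floor, probe summary, slide, scan day, replicate block, variance model and each array left out. Equal replicate numbers were checked as pairs and did not pair the samples.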

Additional observations from a re-analysis of the deposited data

Results flagged for a closer look

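In ssc-miR-92a, cyclic replicate 2 lay far from the other cyclic arrays on the scaled log2 values, at the floor of −4.86 against −4.28 for the nearest. Before scaling, the intensity of its probe was 12.2, 9.39, 9.96 and 16.8 on cyclic replicates 1 to 4, so replicates 2 and 3 were close. On pregnant arrays it ran from 12.9 to 19.2, and the groups overlapped. The gap took 0.928 of the group's range, above Dixon's 95% critical value for 4 samples. This was 1 of 18 groups of arrays checked, and chance flags about 1 group in 20. Without that array the difference of miR-92a kept its sign, as it did without any other single array (0.28 to 0.52), and did not pass.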

How the results depend on the processing

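Of 24 other settings, 22 had 0 members that passed, and of 214 values of members under these settings 210 kept their sign. The exceptions all came from scaling on the 75th percentile of all probes, where mmu-miR-20b-5p (0.03), ssc-miR-17-3p (0.0456), ssc-miR-17-5p (0.11) and ssc-miR-20b (0.0316) turned positive, the members' median difference was 0.0283 and 1 member passed (miR-92a, 0.73, adjusted p = 0.0128). This scaling moved all targets by a median of 0.30, and 62 targets passed (55 higher, 7 lower) against 24 (11 higher, 13 lower); relative to all targets the members' median was −0.28 in both. The number of targets that passed was 11 with normexp, 10 with the scanner's total gene signal, 1 with no filter, 11 with the floor at the 5th percentile, 9 on slide 3 alone, 2 with scan day as a block and 2 on the scan day with both groups, a setting chosen after seeing the data; the cause was not tested. Leaving out 1 array gave 7 to 81 targets (81 without cyclic replicate 1), 0 to 2 members, a median member difference of −0.40 to −0.15 and a strand ratio difference for miR-17 of −0.126 to 0.0243. Pairs of equal replicate number correlated by 0.104, 0.0976, −0.177 and 0.160 for replicates 1 to 4, and 2 of 4 were closest to their own number. The replicate block gave 26 targets (13 higher, 13 lower), 0 members and an unchanged median of −0.27.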

Other observations

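In the authors' deposited table, whose values are centred on each spot, cyclic replicate 4 was also the highest array in the 8 tested members other than miR-92a. In the authors' deposited table ssc-miR-19b stood at −0.13, 0.22, 0.01 and 0.64 on cyclic replicates 1 to 4, and ssc-miR-92a was lowest on cyclic replicate 2 (−0.94).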
